A study of Mus musculus with 8 samples.

Results

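Genes of S phase and mitosis were followed through the 2 main subsets of mouse monocytes: 16 genes of DNA synthesis and the entry into it, and 24 genes of the mitotic kinases, cyclins, spindle and kinetochore. They were chosen by name, with earlier results of these data known. Every probe set whose platform annotation carried exactly 1 of these symbols was taken. This gave 77 probe sets of 39 genes among 45037 probe sets and 18193 named genes. The cyclin Ccnb1 matched no probe set by this rule and was not analysed here. The samples were 4 of Gr1lo (Ly-6clo) monocytes, called Ly6Clo here, and 4 of Gr1hi (Ly-6chi) monocytes, called Ly6Chi, all from 12-week-old C57Bl/6 mice with no treatment or transgene named in the labels. Each sample was 1 sort of leukocytes pooled from 5 mice, so a value is the mean of a pool, and each was hybridised to 1 Affymetrix 3' expression array. Values are log2 probe set intensities, and signed differences are Ly6Clo minus Ly6Chi.

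Cells that enter S phase switch on E2F target genes for nucleotide supply and DNA copying. Mitotic genes are switched on later, in G2, largely through the MuvB complex with B-Myb and FoxM1, and are kept silent in resting cells by the related DREAM complex. Circulating monocytes are known as mostly non-dividing cells that descend from dividing bone marrow precursors. Ly6Clo monocytes are known to derive largely from Ly6Chi monocytes.

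Of the S phase genes, 6 that serve or guard DNA synthesis were higher in Ly6Clo monocytes, by 1.29- to 1.76-fold, while of the 23 measured mitosis genes 4 were called, 9 were tested and not called, and 10 were too dim to test. These were Rrm1, Lig1, Pcna, Gmnn, Tk1 and Prim1, while the regulators E2f8 and Cdt1 were called higher in Ly6Chi, which makes 8 of 16 genes. In the mitosis group, Top2a and Kif23 were called higher in Ly6Clo and Aurkb and Mki67 higher in Ly6Chi, which makes 4 of 23 genes. A gene was called at a limma p under 0.05 after Benjamini-Hochberg adjustment, made over every probe set that entered the test. Of these probe sets 31.1% were called, and 32.5% of all tested genes were called, 14.1% toward Ly6Clo and 18.5% toward Ly6Chi. A filter on dim signal had kept 10 of 16 S phase and 13 of 23 mitosis genes, beside 63.5% of all named genes. Of the members kept, 3 (E2f8, Aurkb and Top2a) passed it only through the subset in which they were brighter. Fitted without that filter, the counts were again 8 of 16 (50%) and 4 of 23 (17.4%), beside 19.7% of all named genes (8.37% toward Ly6Clo and 11.3% toward Ly6Chi). The S phase share lay above the background and the mitosis share near it, which only describes members chosen with earlier results of these data known. In RNA of sorted pools, fewer dividing cells and less RNA per cell cannot be told apart.

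Detection calls were not used here, and the median of all probe set values (intensity 81.9, log2 6.36) served as a bar for dim signal. By the mean over the 8 arrays, 10 of 16 S phase genes (62.5%) and 12 of 23 mitosis genes (52.2%) lay above it, beside 63% of all named genes. Within the subsets, 9 S phase genes lay above the bar in Ly6Clo and 8 in Ly6Chi, beside 62.6% and 63% of all named genes. For mitosis genes these counts were 12 in Ly6Clo and 10 in Ly6Chi. Each gene is represented here by its brightest tested probe set, or by its brightest probe set where none was tested, which favours the higher side. With the average of all probe sets of a gene, 8 S phase genes and 5 mitosis genes lay above the bar. The 63% does not apply to this average, for which no share of all named genes is given here. On all 8 arrays 7 S phase genes and 6 mitosis genes stayed above the bar, beside 10426 of all 18193 named genes. On no array was the bar reached by 5 S phase genes and 8 mitosis genes, beside 5803 of all named genes.

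Most promoter windows of mitosis genes held the letters of the CHR and CCAAT motifs. RefSeq promoter windows (build GRCm38.p6, from 250 bases before to 50 bases after the annotated start) were matched by symbol for 34 of the 40 genes, Ccnb1 among them. No window was matched for the called genes Aurkb and Gmnn, or for Ccna2, Ccne2, Kif20a and Tpx2. E2F sites were searched as TTTCCCGC and TTTGGCGC, the cell cycle homology region (CHR) bound by MuvB as TTTGAA and TTCGAA, and the CCAAT box bound by NF-Y as CCAAT, all on both strands. The CHR letters stood in 16 of 21 windows of mitosis genes (76.2%) and in 1 of 16 windows of S phase genes (6.25%), beside 19.2% of all 32851 windows. The CCAAT box stood in 81% of mitosis windows and 37.5% of S phase windows, beside 37.4% of all windows. The E2F letters stood in 3 S phase windows (18.8%), those of Cdc6, Cdt1 and Pola1, and in 0 mitosis windows, beside 1.56% of all windows. No CCAAT match overlapped an E2F or CHR match in these windows, Lig1 has 3 windows, and the 2 windows of Prc1 overlap. Only exact letters were counted, so sites with other letters, among them other E2F sites, do not appear in these shares. A match is a description of the letters, and binding was not measured. The windows of 5 genes are shown because Top2a (4 CHR matches) and Mki67 (2 CHR matches), both also with CCAAT letters, differed in opposite directions, and because E2f8 holds the CHR of the S phase group, Cdt1 an E2F match, and Rrm1, which was called by both of its tested probe sets, only CCAAT boxes. Capitals mark E2F, CHR and CCAAT matches on either strand.
Top2a, chr11:99024140-99024439, minus strand: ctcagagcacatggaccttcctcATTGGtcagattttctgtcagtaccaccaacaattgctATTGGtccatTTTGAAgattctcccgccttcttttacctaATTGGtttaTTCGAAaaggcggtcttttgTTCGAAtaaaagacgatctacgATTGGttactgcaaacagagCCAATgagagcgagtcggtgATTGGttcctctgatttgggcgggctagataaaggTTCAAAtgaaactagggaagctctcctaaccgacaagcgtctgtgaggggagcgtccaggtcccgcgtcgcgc
Mki67, chr7:135716330-135716629, minus strand: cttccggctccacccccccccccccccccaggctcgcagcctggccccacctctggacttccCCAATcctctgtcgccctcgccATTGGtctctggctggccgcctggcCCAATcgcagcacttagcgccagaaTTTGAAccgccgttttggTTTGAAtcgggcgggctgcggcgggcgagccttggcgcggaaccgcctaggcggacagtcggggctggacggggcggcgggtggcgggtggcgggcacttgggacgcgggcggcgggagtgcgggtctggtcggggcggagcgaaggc
E2f8, chr7:48881547-48881846, minus strand: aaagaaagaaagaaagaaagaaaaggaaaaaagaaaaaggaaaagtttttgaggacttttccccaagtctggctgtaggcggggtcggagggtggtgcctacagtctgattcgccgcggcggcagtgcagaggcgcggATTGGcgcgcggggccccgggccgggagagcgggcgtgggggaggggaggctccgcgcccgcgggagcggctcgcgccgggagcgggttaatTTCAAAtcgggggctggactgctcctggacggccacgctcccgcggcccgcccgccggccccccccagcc
Cdt1, chr8:122567765-122568064, plus strand: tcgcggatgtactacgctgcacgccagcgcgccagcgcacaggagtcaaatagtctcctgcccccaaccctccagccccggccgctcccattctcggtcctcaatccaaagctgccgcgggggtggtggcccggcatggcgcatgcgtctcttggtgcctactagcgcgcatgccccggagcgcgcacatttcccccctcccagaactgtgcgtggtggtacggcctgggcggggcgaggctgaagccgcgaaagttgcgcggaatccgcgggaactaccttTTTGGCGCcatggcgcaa
Rrm1, chr7:102441445-102441744, plus strand: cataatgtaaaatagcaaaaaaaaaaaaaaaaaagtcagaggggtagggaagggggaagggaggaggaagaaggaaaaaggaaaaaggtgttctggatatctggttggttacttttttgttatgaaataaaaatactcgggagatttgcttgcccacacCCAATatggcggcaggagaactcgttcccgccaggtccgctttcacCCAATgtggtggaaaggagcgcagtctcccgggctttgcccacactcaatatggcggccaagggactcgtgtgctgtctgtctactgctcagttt

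**Figure D1:**
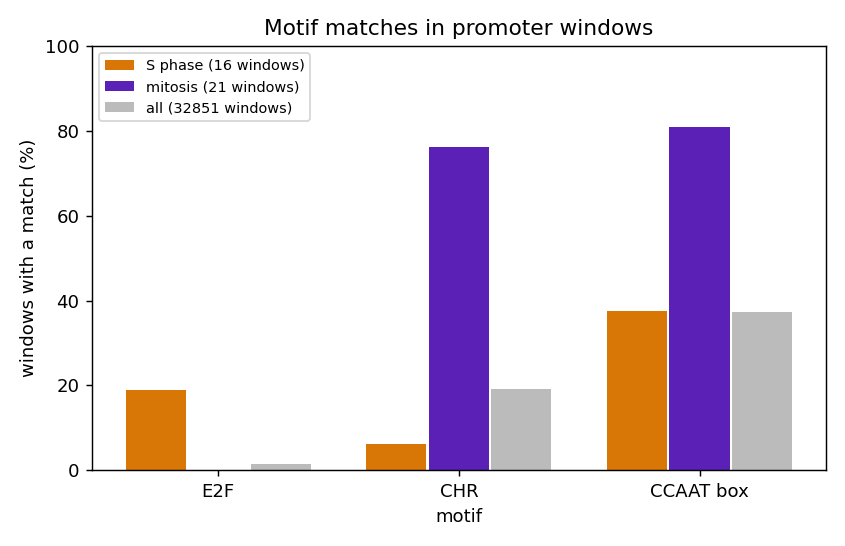
Share of promoter windows (y axis, percent) with at least 1 match to the E2F, CHR or CCAAT letters (x axis) for 16 windows of S phase genes, 21 of mitosis genes and all 32851 windows, shown as bars. CHR letters stand in 76.2% of mitosis windows against 19.2% of all windows.

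Genes of nucleotide supply divided into those higher in Ly6Clo and those too dim to test. Rrm1, the large subunit of ribonucleotide reductase, had log2 intensities of 8.35, 8.47, 8.33 and 8.45 in Ly6Clo, against 7.6, 7.62, 7.76 and 7.34 in Ly6Chi. Every Ly6Clo sample lay above every Ly6Chi sample, a 1.76-fold difference (0.82 log2, SE 0.09, limma adjusted p = 2.5e-05). Another Rrm1 probe set was also called (1.06), and the remaining one, at 4.02 in Ly6Clo and 3.86 in Ly6Chi, was too dim to test. Rrm2, the small subunit whose supply is known to be limited to S phase, averaged 5.91 ± 0.08 in Ly6Clo and 5.88 ± 0.11 in Ly6Chi (SD, n = 4 each), below the bar on all arrays for all 3 of its probe sets. Tk1, the thymidine kinase of the salvage pathway, stood at 6.78, 6.62, 6.67 and 6.49 in Ly6Clo, against 6.23, 6.31, 6.40 and 6.00 in Ly6Chi. These ranges did not overlap (1.33-fold, 0.41 log2, SE 0.09, limma adjusted p = 0.0058), though 3 of 4 Ly6Chi samples lay below the bar. Tyms, thymidylate synthase, had 4 probe sets with differences between -0.11 and 0.08, none of them bright enough to test. Ung, the uracil glycosylase that clears uracil from DNA, averaged 5.76 in Ly6Clo and 5.70 in Ly6Chi, with overlapping ranges and no array above the bar.

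Of the 4 members that work at the replication fork, Pcna, Lig1 and Prim1 were tested and all 3 were higher in Ly6Clo. Pcna, the sliding clamp of the polymerases, stood at 11.75, 11.94, 11.84 and 11.93 in Ly6Clo, against 11.30, 11.30, 11.43 and 11.37 in Ly6Chi. The subsets did not overlap, and the difference was 1.43-fold (0.52 log2, SE 0.07, limma adjusted p = 1.1e-04). Lig1, the ligase that joins Okazaki fragments, stood at 7.29, 7.58, 7.36 and 7.42 in Ly6Clo, against 6.67, 6.71, 6.80 and 6.89 in Ly6Chi, again without overlap (1.57-fold, 0.65 log2, SE 0.08, limma adjusted p = 6.2e-05). Prim1, the catalytic primase subunit, stood at 6.66, 6.93, 6.54 and 6.72 in Ly6Clo, against 6.36, 6.43, 6.25 and 6.33 in Ly6Chi. It was 1.29-fold higher in Ly6Clo with no overlap (0.37 log2, SE 0.08, limma adjusted p = 0.0052), and 2 of 4 Ly6Chi samples lay above the bar. The second Prim1 probe set differed by 0.39 but was too dim to test. Pola1, the polymerase that works with primase, had 6.08, 6.41, 6.25 and 6.14 in Ly6Clo, against 6.12, 6.04, 5.66 and 5.75 in Ly6Chi. Its ranges overlapped, 1 array passed the bar, and it was not tested.

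The origin licensing factor Cdt1 and its inhibitor geminin (Gmnn) differed in opposite directions. Cdt1 stood at 9.38, 9.48, 9.19 and 9.35 in Ly6Clo, against 9.76, 9.57, 9.71 and 9.50 in Ly6Chi, a narrow separation without overlap (-0.28 log2, SE 0.08, limma adjusted p = 0.022). A second Cdt1 probe set was called in the same direction (-0.23, limma adjusted p = 0.034), but not in the fit without the filter (limma adjusted p = 0.057). The call of the first probe set was lost without Ly6Clo replicate 3, Ly6Chi replicate 1 or Ly6Chi replicate 3 (limma adjusted p = 0.064, 0.059 and 0.057). Gmnn stood at 8.13, 8.37, 8.31 and 8.32 in Ly6Clo, against 7.99, 7.90, 7.68 and 7.70 in Ly6Chi. It was 1.38-fold higher in Ly6Clo (0.47 log2, SE 0.08, limma adjusted p = 0.0013), with no overlap. Cdc6, which loads the helicase together with Cdt1, averaged 5.35 ± 0.21 in Ly6Clo and 5.30 ± 0.12 in Ly6Chi (SD, n = 4 each), below the bar on every array.

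Among the regulators of the entry into S phase, the repressor E2f8 differed, and the activators E2f1 and Ccne1 did not pass the test. E2f8, an atypical E2F that represses E2F target genes, stood at 5.83, 6.11, 6.03 and 6.04 in Ly6Clo, against 6.91, 6.74, 6.67 and 6.80 in Ly6Chi. All Ly6Clo samples lay below the bar and all Ly6Chi samples above it. The log2 difference was -0.78 (SE 0.08, limma adjusted p = 1.5e-05), and against the bar E2f8 was at least 1.34-fold higher in Ly6Chi. A second E2f8 probe set was too dim to test and differed by 0.02. E2f1, an activator of S phase genes, averaged 7.62 ± 0.08 in Ly6Clo and 7.63 ± 0.14 in Ly6Chi (SD, n = 4 each), with a difference of -0.01 and a 95% interval from -0.19 to 0.16. Ccne1, the cyclin that activates Cdk2 at the start of S phase, differed by 0.07 (95% interval -0.14 to 0.28) with overlapping ranges. Ccne2 averaged 4.54 in Ly6Clo and 4.31 in Ly6Chi and was too dim to test.

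**Figure D2:**
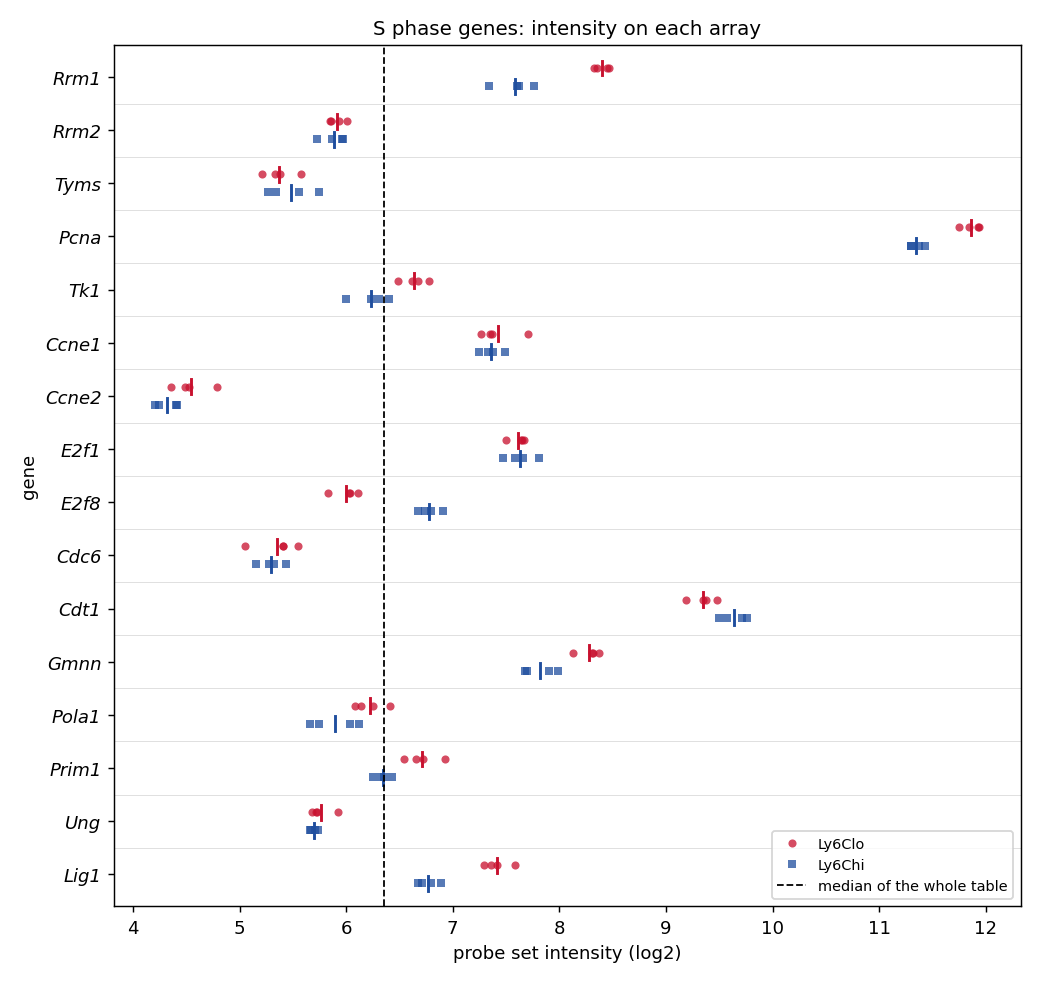
Log2 probe set intensity (x axis) of the 16 S phase genes (rows) on each array, with Ly6Clo as circles above Ly6Chi as squares, 4 arrays each, short vertical lines at the subset means and a dashed line at the median of the whole table (6.36). Rrm1, Pcna, Lig1, Gmnn, Tk1 and Prim1 have all Ly6Clo points right of all Ly6Chi points, and E2f8 and Cdt1 the reverse.

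The mitotic genes that differed went both ways. Aurkb, the kinase of the chromosomal passenger complex, stood at 6.04, 5.70, 6.22 and 6.14 in Ly6Clo, against 7.28, 7.17, 7.02 and 7.16 in Ly6Chi. No Ly6Clo sample reached the bar and all Ly6Chi samples exceeded it, and measured against the bar the Aurkb signal was higher in Ly6Chi by at least 1.75-fold (-1.13 log2, SE 0.11, limma adjusted p = 8.5e-06). Its second probe set was called in the same direction (-0.69), and both are of types that can match several transcripts. Mki67, the proliferation marker Ki-67 that coats mitotic chromosomes, stood at 6.16, 6.09, 6.41 and 6.31 in Ly6Clo, against 6.87, 6.66, 6.82 and 6.69 in Ly6Chi. The ranges did not overlap, 1 of 4 Ly6Clo samples lay above the bar, and the difference was -0.52 (SE 0.08, limma adjusted p = 5.4e-04), 1.43-fold higher in Ly6Chi.

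Top2a, the topoisomerase that untangles sister chromatids, stood at 6.84, 6.63, 6.83 and 6.89 in Ly6Clo, against 6.23, 5.81, 6.03 and 5.83 in Ly6Chi. All Ly6Clo samples lay above the bar and all Ly6Chi samples below it, at least 1.36-fold higher in Ly6Clo (0.82 log2, SE 0.10, limma adjusted p = 5.7e-05). This rests on 1 of its 3 probe sets, of a type that can match several transcripts, and the other 2 were too dim to test (differences of 0.16 and 0.04). Kif23, the kinesin of the central spindle, stood at 7.6, 7.64, 7.64 and 7.8 in Ly6Clo, against 7.54, 7.33, 7.40 and 7.39 in Ly6Chi. It was 1.20-fold higher in Ly6Clo with no overlap (0.26 log2, SE 0.07, limma adjusted p = 0.015), and its other 2 probe sets were too dim to test.

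The other 9 tested mitosis genes were not called. Aurka, the kinase of the spindle poles, had 6.45, 6.54, 6.42 and 6.53 in Ly6Clo, against 6.36, 6.38, 6.14 and 6.32 in Ly6Chi. These ranges did not overlap, but the difference of 0.19 had a 95% interval from 0.04 to 0.34 and missed the threshold (limma adjusted p = 0.061). In the limma fit on the average of each gene's tested probe sets, the Aurka difference was also 0.19, with an adjusted p of 0.049. Cdc20, an activator of the anaphase-promoting complex, differed by 0.17 (95% interval 0.00 to 0.33). Its other probe sets were too dim to test and differed by 0.3 and 0.03. The former had all Ly6Clo samples above all Ly6Chi samples and, without the filter, a limma adjusted p of 0.016. Nusap1, a spindle microtubule protein, differed by 0.19 (-0.12 to 0.50). The checkpoint kinase Bub1b differed by 0.09, the spindle factor Tpx2 by 0.06 and the kinetochore motor Cenpe by 0.03. Cyclin A2 (Ccna2) and the midzone protein Prc1 differed by -0.01 and -0.02, and the mitotic kinase Plk1 by -0.09 (95% interval -0.23 to 0.06). The intervals of Bub1b, Tpx2, Cenpe, Ccna2, Prc1 and Plk1 all held 0 and excluded a 2-fold difference in intensity. Over all arrays these genes averaged between 6.37 (Prc1) and 7.04 (Bub1b), while the T cell markers Cd4 and Cd8a averaged 7.02 and 6.92. How closely such dim intensity follows the amount of RNA was not tested, so a 2-fold difference in RNA is not excluded.

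The 10 mitosis genes too dim to test hold much of the mitotic engine. Cdk1, the kinase that starts mitosis, stood at 6.15, 6.07, 6.09 and 6.24 in Ly6Clo, against 5.94, 5.63, 6.28 and 5.99 in Ly6Chi, below the bar on every array with overlapping ranges. Its partner cyclin Ccnb2 averaged 5.66 in Ly6Clo and 5.85 in Ly6Chi, and survivin (Birc5), the passenger complex partner of Aurkb, 5.33 and 5.18. The kinesins Kif11 and Kif20a differed by 0.00 and -0.04, and the checkpoint kinases Bub1 and Ttk by 0.08 and 0.07. Of the kinetochore proteins, Ndc80 stood at 6.26, 6.49, 6.31 and 6.73 in Ly6Clo, against 6.01, 6.06, 6.32 and 6.14 in Ly6Chi, its partner Nuf2 averaged 4.17 in Ly6Clo and 4.02 in Ly6Chi, and Cenpf 6.22 and 6.24. Ndc80 passed the bar in 2 Ly6Clo samples and Cenpf in 1, and in no Ly6Chi sample. Without the filter, none of these 10 genes or of the 6 untested S phase genes was called by limma.

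**Figure D3:**
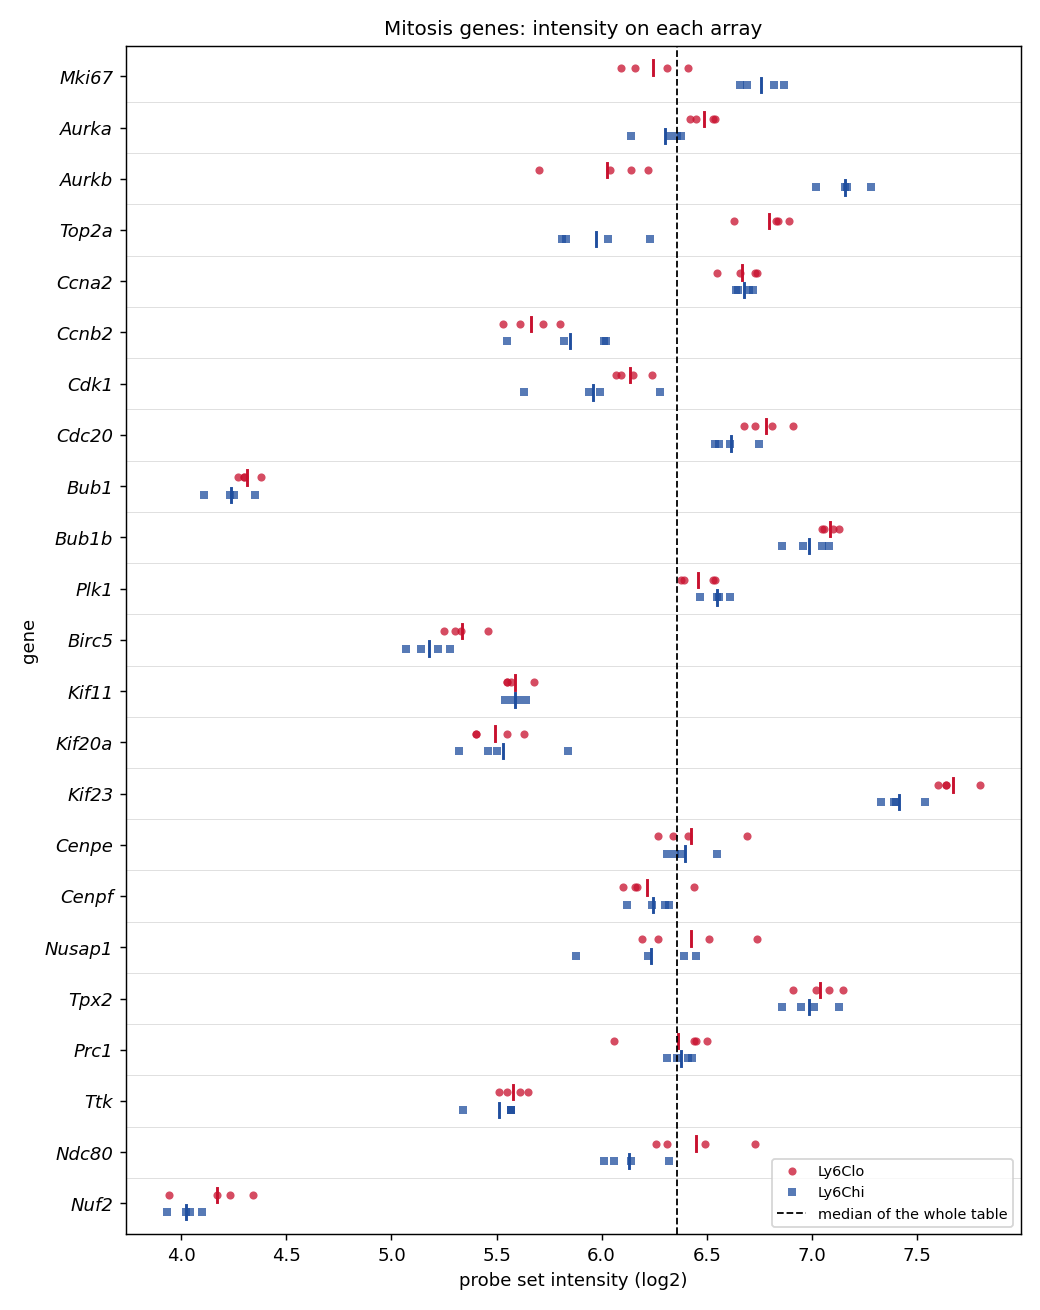
Log2 probe set intensity (x axis) of the 23 measured mitosis genes (rows) on each array, with Ly6Clo as circles above Ly6Chi as squares, 4 arrays each, short vertical lines at the subset means and a dashed line at the median of the whole table (6.36). Most genes sit near or left of the dashed line with overlapping subsets; Aurkb and Mki67 are right-shifted in Ly6Chi, and Top2a and Kif23 in Ly6Clo.

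**Figure D4:**
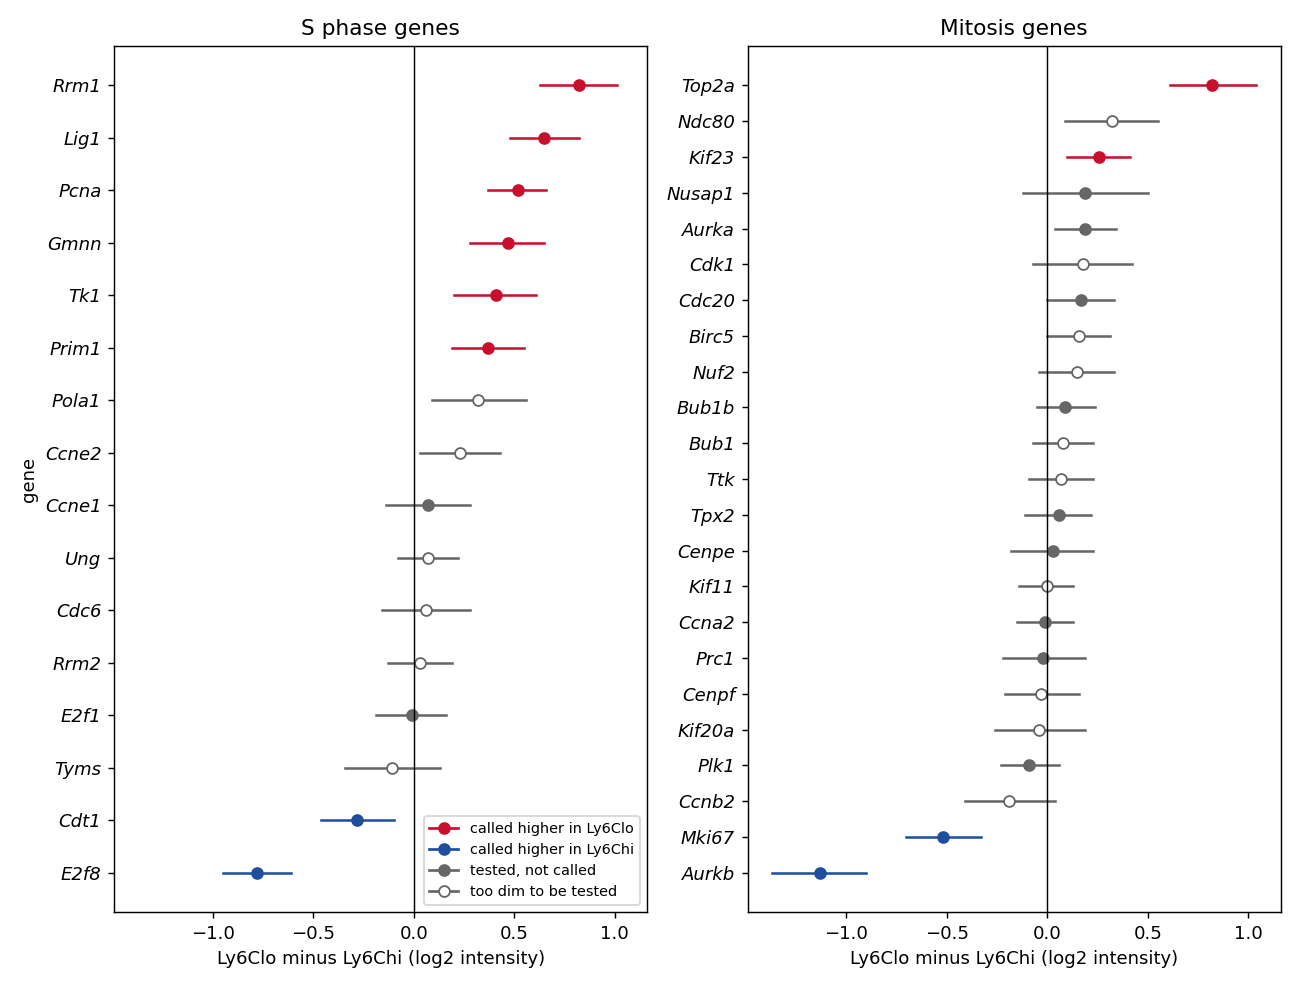
Difference between the subsets (x axis, Ly6Clo minus Ly6Chi, log2 intensity) for each S phase gene (left) and mitosis gene (right), with unadjusted 95% intervals from limma as lines; filled points were tested, and open points were too dim, with intervals from the fit without the filter. The fitted differences of the called genes lie between -1.13 (Aurkb) and 0.82 (Rrm1 and Top2a), and those of Aurkb, E2f8 and Top2a rest on a dim subset below the bar.

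Over all measured members, tested or not, the median difference was 0.15 for S phase genes and 0.07 for mitosis genes, beside -0.01 for all named genes. The median absolute difference was 0.30 for S phase and 0.15 for mitosis genes, beside 0.09 for all named genes. The subsets did not overlap for 8 of 16 S phase genes (50%) and 5 of 23 mitosis genes (21.7%), beside 23.8% of all named genes. Ly6Clo lay wholly above Ly6Chi for 6 S phase and 3 mitosis genes (10.2% of all named genes), and Ly6Chi wholly above Ly6Clo for 2 of each (13.6%). Averaged over the 16 S phase genes, the log2 level was 6.96, 7.12, 7.06 and 7.07 in Ly6Clo samples, against 6.93, 6.89, 6.85 and 6.85 in Ly6Chi samples, so that Ly6Clo replicate 1 came close to the Ly6Chi values. Averaged over the 23 mitosis genes it was 6.14, 6.08, 6.17 and 6.21 in Ly6Clo, against 6.14, 6.07, 6.15 and 6.11 in Ly6Chi, with overlapping ranges.

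**Figure D5:**
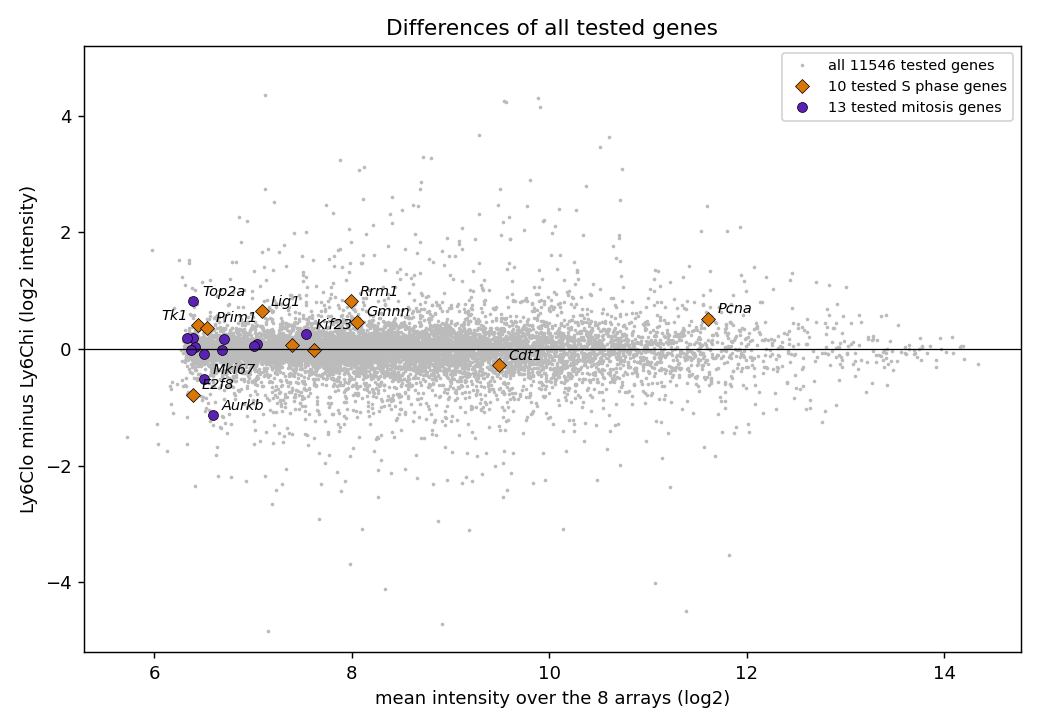
Difference between the subsets (y axis, Ly6Clo minus Ly6Chi, log2 intensity) against the mean intensity over the 8 arrays (x axis, log2) for all 11546 tested genes in grey, with the 10 tested S phase genes as diamonds and the 13 tested mitosis genes as circles; called members are named. The mitosis genes crowd at the dim end, and no member comes near the largest differences of the table.

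Related genes came from lists written from general knowledge, with earlier results of these data known. Their shares are therefore a description and not an independent check. Of 44 other replication genes, 41 were tested, and calls went toward Ly6Clo for 23 and toward Ly6Chi for 2, with a median difference of 0.25, and without the filter 54.5% of the 44 were called, beside 19.7% of all named genes. The helicase subunits Mcm5 (1.36 log2) and Mcm6 (1.24) led toward Ly6Clo, and the fork protector Timeless (-0.75) and the clamp loader subunit Rfc2 (-0.29) were the 2 toward Ly6Chi. All of Mcm2 to Mcm7, 6 genes, were called toward Ly6Clo. Without them, 35 genes were tested, with 17 calls toward Ly6Clo, 2 toward Ly6Chi and a median of 0.20. Of 60 other mitosis genes, 41 were tested, and 17 calls went toward Ly6Clo and 4 toward Ly6Chi, with a median of 0.06, and without the filter 38.3% of the 60 were called. The condensin subunit Smc2 (1.42) and the Cdk subunit Cks2 (1.20) led toward Ly6Clo, and separase, Espl1 (-1.35), and Racgap1 (-1.09) toward Ly6Chi. Racgap1 is the partner of Kif23 in the central spindle complex, and the 2 partners were called in opposite directions. The passenger complex was divided as well: named after their values were seen, Cdca8 (borealin) was called higher in Ly6Clo (0.76) and Incenp higher in Ly6Chi (-0.32), beside Aurkb.

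Of 20 cell cycle transcription factors and pocket proteins, 17 were tested, with 5 calls toward Ly6Clo, 2 toward Ly6Chi and a median of 0.11, beside 14.1% and 18.5% of all tested genes called in these directions. Without the filter on dim signal, 30% of these 20 genes were called, beside 19.7% of all named genes. Lin54, the MuvB subunit that binds the CHR, averaged 7.43 ± 0.13 in Ly6Clo and 6.56 ± 0.38 in Ly6Chi (SD, n = 4 each), a difference of 0.87 (SE 0.15, limma adjusted p = 0.0011). The retinoblastoma gene Rb1, which holds E2F in check, was 1.6-fold higher in Ly6Clo (0.68 log2). The E2F partner Tfdp1 and the activator E2f2 were higher in Ly6Chi (-0.54 and -0.41). Of 13 subunits and activators of the anaphase-promoting complex, all tested, Cdc23 was the call toward Ly6Clo (0.26) and 3 calls went toward Ly6Chi, led by Anapc13 (-0.41) and Anapc4 (-0.26), with a median of 0.01. These 4 calls among 13 tested genes stand beside 32.5% of all tested genes, and without the filter 15.4% of the 13 were called, beside 19.7% of all named genes, so the share was near the background.

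Markers of other cells were read beside these results, as sums of linear intensity over each list. All 8 measured nonclassical markers were called toward Ly6Clo and all 5 measured classical markers toward Ly6Chi, the directions that the sort labels give. The marker lists were also written with earlier results of these data known, so this is not an independent check of the labels. Ly6c1 and Ly6c2 themselves were not analysed here. Bone marrow progenitor markers summed to 939 to 1040 in Ly6Clo and 1330 to 1600 in Ly6Chi, with 4 of 12 above the bar in Ly6Clo and 6 in Ly6Chi. Flt3 and Prtn3 were the brightest of them, 4 were called higher in Ly6Chi, and Kit, Cd34 and Myb lay below the bar on every array of both subsets. Flt3 is among these calls and is also 1 of the 2 dendritic cell markers called toward Ly6Chi. Neutrophil markers summed to 1530 to 1910 in Ly6Clo and 5890 to 6390 in Ly6Chi (5 and 9 of 11 above the bar), led by Csf3r and Cd177, and 5 were called higher in Ly6Chi. The called progenitor and neutrophil markers went the same way as Aurkb, Mki67 and E2f8. The progenitor markers Elane (-0.03) and Sox4 (0) were tested and not called, as were the neutrophil markers S100a9, Camp, Ngp and Ltf. The median difference was -0.07 over the progenitor list and -0.56 over the neutrophil list. The part of such cells in the differences of Aurkb, Mki67 and E2f8 was not tested.

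In sum, NK cell markers moved the other way (1220 to 1510 in Ly6Clo, 897 to 1050 in Ly6Chi). By their means, 5 and 4 of 8 lay above the bar. Klrk1 and Gzma were the brightest, and Klrd1 and Gzma were called higher in Ly6Clo. Klrk1 (0.07), Nkg7 (0.29) and Gzmb (0.28) were tested and not called, and the median difference over the list was 0.21. The means of Ncr1, Eomes and Prf1 lay below the bar in both subsets. The part of NK cells in the S phase differences was not tested. The sums of erythroid markers were 1600 to 5080 in Ly6Clo and 1420 to 3530 in Ly6Chi, led by Alas2 and Slc4a1, and overlapped, although the transferrin receptor Tfrc, chosen after its value was seen, was called higher in Ly6Clo (1.00). B cell markers, led by Cd22 and Cd79b, also overlapped in sum, 1270 to 1590 in Ly6Clo and 1140 to 1670 in Ly6Chi, with 3 and 6 of 9 above the bar. Named after their values were seen, Cd22 was called higher in Ly6Clo (1.27), and Ms4a1 (-1.14) and Cd79a (-0.83) were called higher in Ly6Chi, and their part in the members' differences was not tested. The sums for plasma cells (Xbp1 and Irf4), T cells (Cd3d and Cd3e), dendritic cells (Cd209a and Bst2) and platelets (Ppbp and Pf4) overlapped between the subsets. Of these lists, plasma cell markers had 1 call toward Ly6Clo and 1 toward Ly6Chi, dendritic cell markers 1 and 2, and T cell and platelet markers 0 by limma after adjustment, with 1 T cell marker (Cd3g) and 0 platelet markers at an unadjusted p under 0.05.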

How the data were processed

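Monocyte RNA from 8 sorts was hybridised to Affymetrix mouse arrays after an in vitro transcription step of 64 h in place of 4 h, per the labels' protocols, which can alter the size of ratios. The authors deposited probe set intensity values on a linear scale; GCRMA and MAS5 are listed, without role or version, per the submitters' processing notes, and the normalization is otherwise not given in the sources used here. Array medians lay between 80.6 and 83.1. Arrays have no read depth; their number limits the precision.

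Values were taken to log2 with no further normalization. Of 45101 probe sets, 64 controls were left out. A probe set was tested if above the median of the remaining table in at least 4 of 8 arrays (22831 probe sets, of which 7108, or 31.1%, were called). The test was two-sided, by lmFit and eBayes of limma 3.58.1 (R 4.3.3) without a block, and p-values were adjusted by Benjamini-Hochberg across these 22831 probe sets. The workflow was tested on simulated data. Symbols came from the platform annotation and matched a RefSeq table (GRCm38.p6) for 34741 of 34945 singly named probe sets. Where the dimmer subset lay below the bar on all arrays, a fold is computed against the bar and is a lower bound. Nothing in the labels ties same-numbered samples of the subsets together: their deviations correlated by 0.27, 0.34, -0.03 and -0.10, so the numbers were not taken as pairs. Named were all members; in each related list the 2 called genes with the largest difference in each direction; and the 2 brightest markers of each cell type. The members and lists were chosen with earlier results of these data known. The alternatives changed the filter, scale, normalization, variance model, array weights, probe set choice, bar or threshold, left out each array in turn, or took the replicate number as a block.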

Additional observations from a re-analysis of the deposited data

Results flagged for a closer look

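In groups of 4 arrays, a sample was singled out where its gap to the nearest other sample exceeded Dixon's 95% critical value as a share of the group's range, which chance gives in about 1 in 20 groups. Of 78 groups (39 genes in both subsets), 2 met this. Prc1 stood at 6.06 in Ly6Clo replicate 1, against 6.44 to 6.5 in the other Ly6Clo samples. Ttk stood at 5.34 in Ly6Chi replicate 2, against 5.57 in each of the other Ly6Chi samples. Prc1 was tested and not called, and Ttk was too dim to test.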

How the results depend on the processing

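All 12 called members kept their direction under each of 18 alternatives that could give them a value, and 10 kept their call in all of these. Cdt1 lost it without 1 of 3 arrays and at a threshold of 0.01 (adjusted p 0.012 to 0.064 over its alternatives), and Kif23 at 0.01. The replicate block gave 7164 called probe sets, 8 S phase and 4 mitosis genes, and it changed no member's call. Whether same-numbered samples share more than a number is not given in the labels. Leaving out each array gave 6229 to 6761 probe sets, 7 to 8 S phase genes, 4 mitosis genes, and 9 to 10 S phase and 10 to 13 mitosis genes above the bar. A filter at the upper quartile tested 4 S phase genes and called all 4; it tested 0 mitosis genes and so called 0. Without probe sets that can match several transcripts, 4711 probe sets and 2 mitosis genes were called, since those of Aurkb and Top2a drop out. A bar at the lower quartile put 20 mitosis genes above it. A bar at the upper quartile put 4 S phase and 0 mitosis genes above it. Averaging probe sets left 5 mitosis genes above the median. For these settings no share of all named genes is given here. Of 11 tested members not called, 5 changed sign under some alternative, none with a call. Dim signal limits what can be said of 16 members.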
